A study of Homo sapiens with 4 samples.

Results

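Long intergenic non-coding RNA genes with names of the form LINC plus a number were followed in MDA-MB-231-P3 cells and in the parental MDA-MB-231 line. MDA-MB-231 is an established human triple negative breast cancer cell line, that is, one classed as lacking the estrogen and progesterone receptors and HER2 amplification. MDA-MB-231-P3 was derived from it by 3 rounds of tail vein injection into mice, each followed by harvest of lung tumors and culture of their cells. The subline is therefore a selected population from 1 parental line. RNA from adherent cultures of both lines was sequenced, with 2 libraries of MDA-MB-231-P3 and 2 of MDA-MB-231, as paired reads of 150 bp from strand-marked libraries of the mRNA fraction. The labels do not give separate cultures for the libraries of 1 line, so the p-values below rest on library-to-library spread that may be purely technical. A difference in a bulk culture can come from fewer cells with the RNA or from less RNA per cell, and these cannot be told apart here.

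The deposited table lists 104786 lncRNA isoforms of 46902 genes, each with its FPKM in each library, a unit that scales fragments by isoform length and by the mapped total of the library. Isoform values were summed per gene. Of 1717 genes with a LINC number name, 264 had a mean of at least 0.5 FPKM over the 4 libraries and form the set described here. LINC00460 and LINC00839 also passed this mean and were left out by the rule, as was LINC00657. The level over all 4 libraries chose the genes, so levels are given as description, and the difference between the lines is the measure that the choice did not use. The last genes inside the limit were LINC01619 at 0.504, LINC02348 at 0.512 and LINC00858 at 0.519 FPKM, and the first ones outside were LINC00618 at 0.494, LINC01725 at 0.490 and LINC02175 at 0.487 FPKM. Of the 1453 LINC genes below the limit, 705 were listed at 0 in all 4 libraries. Among the 264 genes, 26 averaged under 0.5 FPKM in MDA-MB-231 and 18 in MDA-MB-231-P3, so these passed only through the line in which they were higher and their differences are partly set by the limit. The other 220 averaged at least 0.5 FPKM in both lines.

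A LINC number is a placeholder given to a non-coding gene that lies between other genes and has no established function, and it says nothing of what the RNA does. LncRNAs as a class act in several known ways: some restrain or activate a neighbouring gene in cis, some bind proteins in the nucleus or cytoplasm, some are the precursors of small RNAs, and a few later proved to encode short proteins. Several LINC genes have been studied in breast cancer, where reports tie them to growth, signalling or invasion.

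The start regions of a few genes that are described further below are shown first, and no result rests on these sequences. LINC00665, LINC00908 and LINC00473 were higher in both MDA-MB-231-P3 libraries and under 0.5 FPKM in both MDA-MB-231 libraries, and LINC00324 was lower in MDA-MB-231-P3. Each line gives the 250 bases before and the 50 bases after the RefSeq start on GRCh38.p14, read 5′ to 3′ on the strand of the gene. The windows lie at chr19:36331669-36331968 on the minus strand, chr18:76528405-76528704 on the plus strand, chr6:165987990-165988289 on the minus strand and chr17:8223994-8224293 on the minus strand. Capitals mark matches, on either strand, to TGACG, a part of the cAMP response element, to TGANTCA, the AP-1 site, to GGGCGG, the GC box motif, or to CCAAT, the motif of the box of that name.
LINC00665: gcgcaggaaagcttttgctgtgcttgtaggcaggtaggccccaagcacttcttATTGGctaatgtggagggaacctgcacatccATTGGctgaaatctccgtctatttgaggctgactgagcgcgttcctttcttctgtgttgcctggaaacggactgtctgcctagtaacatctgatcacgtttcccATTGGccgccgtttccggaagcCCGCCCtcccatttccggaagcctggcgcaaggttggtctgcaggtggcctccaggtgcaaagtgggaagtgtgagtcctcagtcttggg
LINC00908: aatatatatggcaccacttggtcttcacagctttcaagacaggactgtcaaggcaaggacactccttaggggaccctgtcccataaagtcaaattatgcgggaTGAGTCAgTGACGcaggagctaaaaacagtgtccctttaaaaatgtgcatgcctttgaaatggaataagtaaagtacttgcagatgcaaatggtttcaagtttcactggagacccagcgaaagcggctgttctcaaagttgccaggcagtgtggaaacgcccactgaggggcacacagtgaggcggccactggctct
LINC00473: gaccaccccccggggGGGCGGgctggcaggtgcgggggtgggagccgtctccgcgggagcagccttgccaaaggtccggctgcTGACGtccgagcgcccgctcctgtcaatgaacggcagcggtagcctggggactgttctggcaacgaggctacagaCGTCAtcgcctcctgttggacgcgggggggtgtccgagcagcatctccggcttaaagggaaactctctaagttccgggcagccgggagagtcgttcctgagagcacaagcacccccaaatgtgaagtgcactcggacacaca
LINC00324: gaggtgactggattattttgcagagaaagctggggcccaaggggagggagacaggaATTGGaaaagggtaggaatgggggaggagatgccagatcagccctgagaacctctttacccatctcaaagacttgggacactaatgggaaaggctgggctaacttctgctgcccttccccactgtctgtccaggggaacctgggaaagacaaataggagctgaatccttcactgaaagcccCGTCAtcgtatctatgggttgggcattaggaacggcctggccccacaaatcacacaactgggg
LINC00473, known as a target of cAMP signalling through CREB, held TGACG once on each strand, and LINC00908 held TGAGTCA with TGACG just after it. LINC00324 held TGACG once on the strand opposite the gene, close to its start. LINC00665 held CCAAT 3 times and GGGCGG once, all on the strand opposite the gene. These are common letters: TGACG occurred in 25% of 27305 RefSeq promoters of this length and in 48 of the 189 promoters that matched a gene of the LINC set (25.4%). CCAAT occurred in 35.7% of all and 39.2% of LINC promoters, GGGCGG in 44.6% and 39.7%, and TGANTCA in 7.76% and 13.2%. TATAAA, the motif bound by TBP, was in 12% of all and 11.1% of LINC promoters, CACGTG, the E-box, in 7.43% and 6.88%, and the NF-kB site in 10.8% and 5.29%. The shares in the LINC set were above those of all promoters for the AP-1 site, the CCAAT motif and the cAMP element and below them for the others, and no test was made of these differences. The median GC content was 54% in LINC promoters, against 58.3% in all promoters. RefSeq gives LINC00665 a choice of 2 starts, and whether the isoforms measured here begin at any of these starts was not tested.

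By level, the LINC genes were mostly rare RNAs. Their median was 2.03 and 2.03 FPKM in the MDA-MB-231-P3 libraries, against 1.69 and 1.88 FPKM in the MDA-MB-231 libraries. At least 1 FPKM was reached by 202 and 196 of them in MDA-MB-231-P3, against 170 and 193 in MDA-MB-231. Together they held 0.439% and 0.391% of all lncRNA FPKM in MDA-MB-231-P3, against 0.296% and 0.316% in MDA-MB-231. That share does not rest on the LINC genes alone, because the sum over all lncRNAs was 351135 and 372689 FPKM in MDA-MB-231-P3, against 460282 and 500086 FPKM in MDA-MB-231. The summed FPKM of the LINC genes was 1543 and 1457 in MDA-MB-231-P3, against 1360 and 1582 in MDA-MB-231, so the groups overlapped. In every library, 10 isoforms held between 67.7% and 72.7% of all FPKM, and the read depth behind the values is unknown.

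LINC00910 was far the most abundant of the set. It lies on the minus strand at chr17:41416109-41466594 (hg19), with no coding gene overlapping it. It measured 381 and 287 FPKM in MDA-MB-231-P3, against 225 and 407 FPKM in MDA-MB-231. The libraries of MDA-MB-231 enclosed those of MDA-MB-231-P3, and leaving out single libraries moved the log2 difference of 0.13 to between -0.30 and 0.55. Most of the sum came from isoforms 1 and 16, whose values were close in every library. Isoform 1 measured 186 and 135 FPKM in MDA-MB-231-P3, against 103 and 194 FPKM in MDA-MB-231. Isoform 16 measured 181 and 132 FPKM, against 100 and 191 FPKM. Isoform 30 was lower in both MDA-MB-231-P3 libraries. Without this gene the summed FPKM of the set was 1162 and 1170 in MDA-MB-231-P3, against 1135 and 1176 in MDA-MB-231.

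LINC01578, now called CHASERR, came next. CHASERR is known to restrain expression of CHD2, the chromatin remodeller encoded just downstream on the same strand. It lies on the plus strand at chr15:93362770-93442931 (hg19), a span that overlaps CHD2 in the annotation. It measured 64.3 and 69.9 FPKM in MDA-MB-231-P3, against 84.9 and 86.7 FPKM in MDA-MB-231. Both MDA-MB-231-P3 libraries lay below both MDA-MB-231 libraries, with a log2 difference of -0.35 ± 0.25 (SE), and limma did not call it (adjusted p = 0.534). Its leading isoform, number 11, measured 30.1 and 31.0 FPKM in MDA-MB-231-P3, against 46.5 and 47.8 FPKM in MDA-MB-231. Isoform 7 was lower too, and isoforms 10 and 14 overlapped. Isoforms 2, 12 and 13 were higher in both MDA-MB-231-P3 libraries. Isoform 13 measured 4.46 and 4.61 FPKM in MDA-MB-231-P3, against 3.43 and 2.65 FPKM in MDA-MB-231.

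Differences among the next abundant genes went both ways. LINC00662 measured 62.2 and 47.3 FPKM in MDA-MB-231-P3, against 44.8 and 47.2 FPKM in MDA-MB-231. LINC01278, on the X chromosome, measured 35.7 and 35.3 FPKM in MDA-MB-231-P3, against 20.1 and 23.7 FPKM in MDA-MB-231. The LINC01278 libraries did not overlap and the log2 difference was 0.69 ± 0.25 (SE), with an adjusted p of 0.328 in limma. LINC00649 measured 32.2 and 30.6 FPKM in MDA-MB-231-P3, against 20.8 and 29.6 FPKM in MDA-MB-231. LINC01806 measured 25.6 and 26.5 FPKM in MDA-MB-231-P3, against 26.3 and 23.1 FPKM in MDA-MB-231. The libraries of LINC00649 were separate by a narrow gap and those of LINC01806 overlapped. LINC01763 measured 23.7 and 26.9 FPKM in MDA-MB-231-P3, against 13.6 and 22.3 FPKM in MDA-MB-231. LINC01184, which starts beside the transporter gene SLC12A2 on the opposite strand, measured 17.1 and 24.5 FPKM in MDA-MB-231-P3, against 28.3 and 20.3 FPKM in MDA-MB-231. LINC01763 was higher in both MDA-MB-231-P3 libraries and LINC01184 overlapped. LINC00973 measured 15.2 and 12.8 FPKM in MDA-MB-231-P3, against 25.3 and 30.4 FPKM in MDA-MB-231, a log2 difference of -0.97 ± 0.27 (SE) with an adjusted p of 0.276 in limma. LINC00910, LINC01578 and LINC00662 led in this order in all 4 libraries, and the order of the genes below them varied between libraries.

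**Figure D1:**
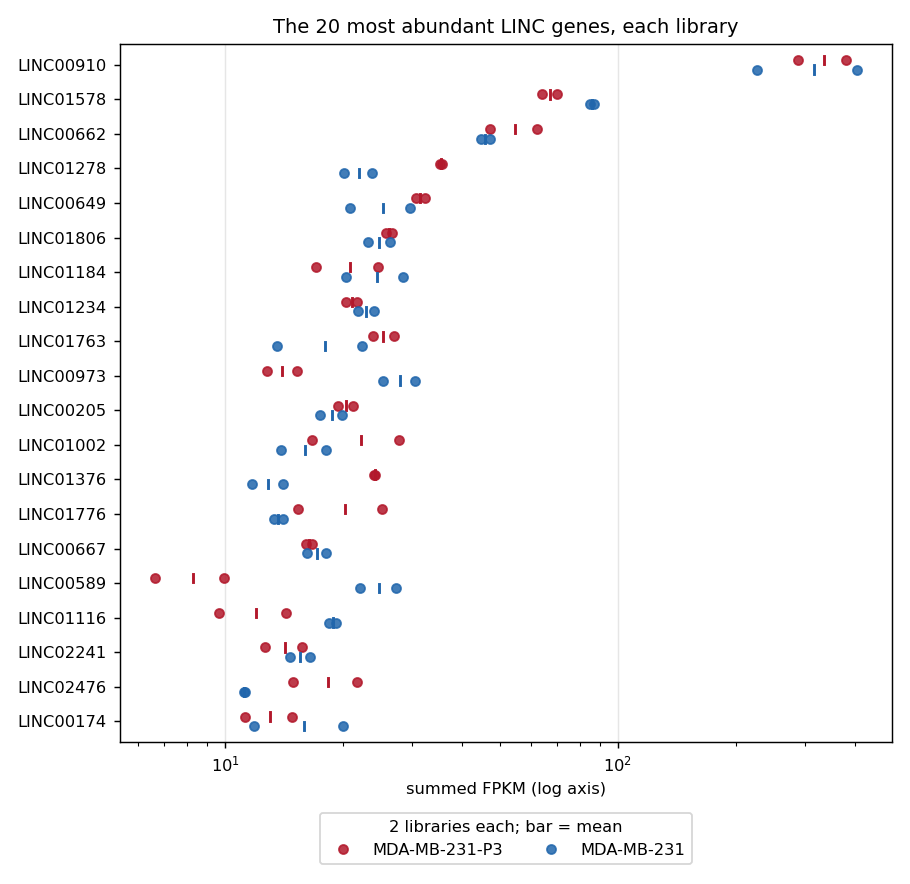
Summed FPKM (log axis) of the 20 most abundant LINC genes, with 1 point for each of the 2 libraries of MDA-MB-231-P3 (red) and of MDA-MB-231 (blue) and a bar at the mean. LINC00910 lies apart from the rest at 225 to 407 FPKM, and for LINC01278, LINC00973 and LINC00589 the lines are well separated.

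The comparison the labels define asks how the lncRNAs of the lung-selected subline differ from those of its parent. For the LINC genes, no difference passed the test: limma on log2(FPKM + 0.5) of the summed values, with Benjamini-Hochberg adjustment over all 6444 genes with a mean of at least 0.5 FPKM, called 0 of 264, and the smallest adjusted p was 0.187. The background was 4 of 6444 genes (0.0621%, and 0.031% in each direction), and all 4 calls were lost whichever library was left out. At an unadjusted p under 0.05, 61 LINC genes (23.1%) stood against 15.2% of all tested genes, with 35 higher in MDA-MB-231-P3, against a background of 9.5%, and 26 lower, against 5.68%. This count was smaller whichever library was left out, and the shares of all tested genes in those fits are not given here. Both MDA-MB-231-P3 libraries lay above both MDA-MB-231 libraries for 83 LINC genes (31.4%), where all tested genes gave 28.8%. They lay below for 66 (25%), where all tested genes gave 21.4%. In either direction the lines were separate for 149 LINC genes (56.4%), where all tested genes gave 50.1%. With a library left out the counts above and below were larger, since a group of 1 library overlaps less often. The shares of all tested genes are not given for those fits.

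The differences of the LINC genes lay on both sides of 0 in similar numbers. The median log2 difference was 0.08 over the LINC genes and 0.09 over all tested genes, and 141 of 264 (53.4%) had a positive one, against 54.7% of all. With quantile normalization or centring of each library on its median log2 value, the median of all genes moved by -0.12 or -0.11. That of the LINC genes became -0.03 in both, so a median near 0.1 is not a direction. The quartiles of the LINC differences lay at -0.38 and 0.58, and the extremes were -2.22 and 2.67. A difference of at least 1 in size on the log2 scale was found for 50 LINC genes (18.9%), where all tested genes gave 21%. Of these, 26 were higher (9.85%, background 13.5%) and 24 lower (9.09%, background 7.53%). Only 6 reached 2 in size (2.27%, background 3.52%).

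Replicates of the LINC genes lay closer together than those of all tested genes, which was not particular to the LINC genes. The median gap between the 2 libraries of a line on the log2 scale was 0.304 in MDA-MB-231-P3 and 0.332 in MDA-MB-231 for LINC genes, and 0.378 and 0.452 for all tested genes. It was 0.292 and 0.365 for other tested genes with a symbol in the annotation, and 0.326 and 0.365 for genes with an -AS name. The 5470 tested genes with a lnc- name had 0.389 and 0.470. The median size of the difference between the lines was 0.475 for LINC genes and 0.507 for all. Across the LINC genes, Pearson's r between log2 values was 0.917 within MDA-MB-231-P3, 0.900 within MDA-MB-231 and 0.774 to 0.825 between libraries of different lines. Over all tested genes it was 0.846, 0.836 and 0.773 to 0.806. These coefficients run across genes, which are not independent, and describe the libraries only.

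**Figure D2:**
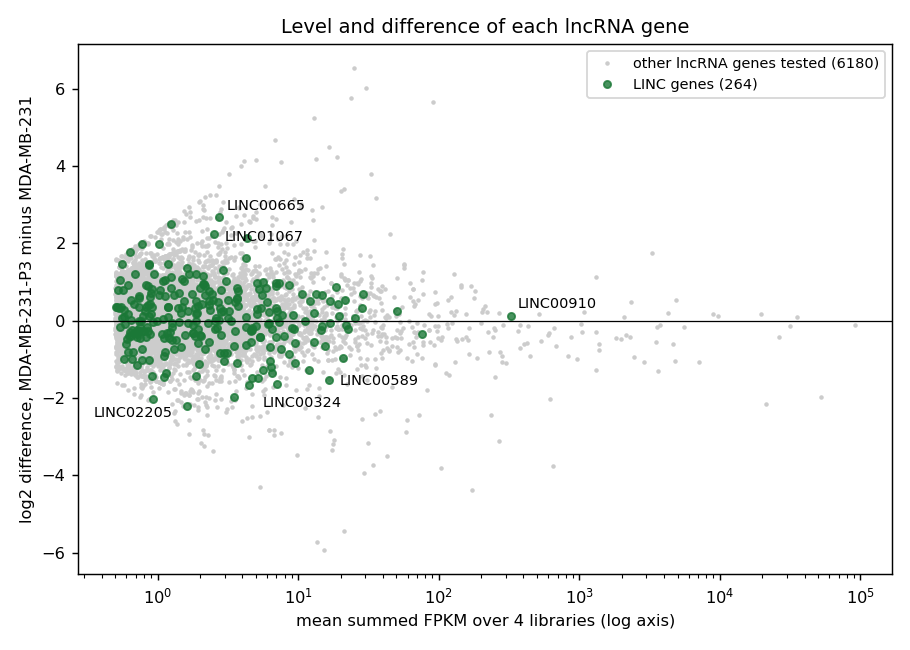
Log2 difference in log2(FPKM + 0.5), MDA-MB-231-P3 minus MDA-MB-231, of each tested lncRNA gene against its mean summed FPKM over the 4 libraries (log axis), with the 264 LINC genes in green and the other 6180 in grey. LINC genes lie between -2.22 and 2.67, inside the wider spread of the other genes, and LINC00910 sits near 0 at the highest LINC level.

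LINC00665 had the largest difference in the direction of MDA-MB-231-P3. Its RNA holds a short open reading frame whose product, CIP2A-BP, is known to bind CIP2A, an inhibitor of the phosphatase PP2A. The gene lies on the minus strand at chr19:36750442-36822672 (hg19), overlapping no coding gene, and its start region was shown above. It measured 3.89 and 6.37 FPKM in MDA-MB-231-P3, against 0.253 and 0.481 FPKM in MDA-MB-231. LINC00665 thus reached the mean of 0.5 FPKM only through MDA-MB-231-P3, and its difference is partly set by that limit. Every MDA-MB-231-P3 library lay above every MDA-MB-231 library and the ratio of the means was 14, with a log2 difference of 2.67 ± 0.36 (SE) and an adjusted p of 0.219 in limma. The isoforms numbered 2 and 6 both showed it: isoform 2 measured 0.881 and 1.64 FPKM in MDA-MB-231-P3, against 0.0116 and 0.0399 FPKM in MDA-MB-231.

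LINC01067 came closest to the threshold of all LINC genes. It is a single-isoform gene on the plus strand at chr13:109962483-109964121 (hg19), and its function is not established. It measured 4.75 and 4.22 FPKM in MDA-MB-231-P3, against 0.518 and 0.582 FPKM in MDA-MB-231. The libraries of each line were close to each other and the ratio of the means was 8.16, with a log2 difference of 2.25 ± 0.26 (SE) and an adjusted p of 0.187 in limma. Its neighbour LINC00370, 12445 bp away on the same strand, had a log2 difference of -0.41 and overlapping libraries.

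LINC00908 encodes the short peptide ASRPS, which was described in triple negative breast cancer and binds STAT3. Its level was 2.10 and 1.01 FPKM in MDA-MB-231-P3, and it was listed near 0, under 0.05 FPKM, in both MDA-MB-231 libraries. LINC00473, whose RNA is induced by cAMP through CREB, measured 1.07 and 1.45 FPKM in MDA-MB-231-P3, and was listed near 0 and at 0.0225 FPKM in MDA-MB-231. Both were low in MDA-MB-231-P3 and at or near 0 in MDA-MB-231, so both reached the limit only through MDA-MB-231-P3. Their differences are partly set by the limit. A value near 0 in such a table can be a failed estimate, so no fold is given. Limma gave LINC00908 a log2 difference of 1.99 ± 0.45 (SE) with an adjusted p of 0.268. It gave LINC00473 1.78 ± 0.40 (SE), also with an adjusted p of 0.268.

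The other genes at this end have no well known role. LINC01982 measured 1.52 and 3.50 FPKM in MDA-MB-231-P3 and was listed at 0 in both MDA-MB-231 libraries. LINC01515 measured 2.32 and 1.52 FPKM in MDA-MB-231-P3, against 0.00676 and 0.229 FPKM in MDA-MB-231. LINC02434 measured 7.93 and 6.35 FPKM in MDA-MB-231-P3, against 0.446 and 2.65 FPKM in MDA-MB-231. The spread within MDA-MB-231 was wide for LINC02434, and its log2 difference of 2.14 became 1.27 to 3.01 when single libraries were left out. LINC01444 measured 7.14 and 6.07 FPKM in MDA-MB-231-P3, against 1.52 and 2.15 FPKM in MDA-MB-231. Adjusted p-values of these 4 genes in limma lay between 0.256 and 0.287. LINC01982 and LINC01515 reached the limit only through MDA-MB-231-P3, so their differences are partly set by it.

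LINC00589 and LINC00324 were the most abundant of the 8 genes with the largest negative differences and separate libraries. LINC00589 measured 6.62 and 9.96 FPKM in MDA-MB-231-P3, against 27.3 and 22.1 FPKM in MDA-MB-231. Its log2 difference was -1.54 ± 0.32 (SE), with an adjusted p of 0.257 in limma and well separated libraries. Isoform 21 of this gene was listed near 0 in both MDA-MB-231-P3 libraries, against 13.0 and 5.52 FPKM in MDA-MB-231. Isoform 11 was lower in both MDA-MB-231-P3 libraries too. Isoform 16 overlapped, at 4.75 and 4.73 FPKM in MDA-MB-231-P3, against 5.40 and 3.06 FPKM in MDA-MB-231.

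LINC00324 lies on the minus strand at chr17:8123942-8127361 (hg19), in the neighbourhood of the mitotic kinase gene AURKB, and its start region was shown above. It measured 3.14 and 3.19 FPKM in MDA-MB-231-P3, against 12.5 and 9.42 FPKM in MDA-MB-231. The MDA-MB-231-P3 libraries were nearly equal and far below the others, with a log2 difference of -1.63 ± 0.28 (SE) and an adjusted p of 0.256 in limma.

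LINC02205, LINC00871 and LINC01273 stood at the negative end of these 8. LINC02205 measured 0.554 FPKM in the first MDA-MB-231-P3 library and was listed at 0 in the second, against 2.17 and 3.76 FPKM in MDA-MB-231. LINC00871 was listed at 0 in the first MDA-MB-231-P3 library and measured 0.117 FPKM in the second, against 2.02 and 1.55 FPKM in MDA-MB-231. LINC01273 measured 0.753 and 1.56 FPKM in MDA-MB-231-P3, against 5.36 and 6.25 FPKM in MDA-MB-231. The log2 differences were -2.22 for LINC02205, -2.03 for LINC00871 and -1.97 for LINC01273, with adjusted p-values in limma of 0.268, 0.256 and 0.256. LINC02205 and LINC00871 reached the limit only through MDA-MB-231, so their differences are partly set by it. LINC00601 measured 2.26 and 1.5 FPKM in MDA-MB-231-P3, against 6.62 and 7.43 FPKM in MDA-MB-231. LINC00239 measured 3.31 and 1.77 FPKM in MDA-MB-231-P3, against 8.05 and 7.56 FPKM in MDA-MB-231. LINC01714 measured 2.04 and 2.44 FPKM in MDA-MB-231-P3, against 7.42 and 6.98 FPKM in MDA-MB-231. All libraries of these 3 genes were separated by line, and limma gave adjusted p-values of 0.256 to 0.268.

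**Figure D3:**
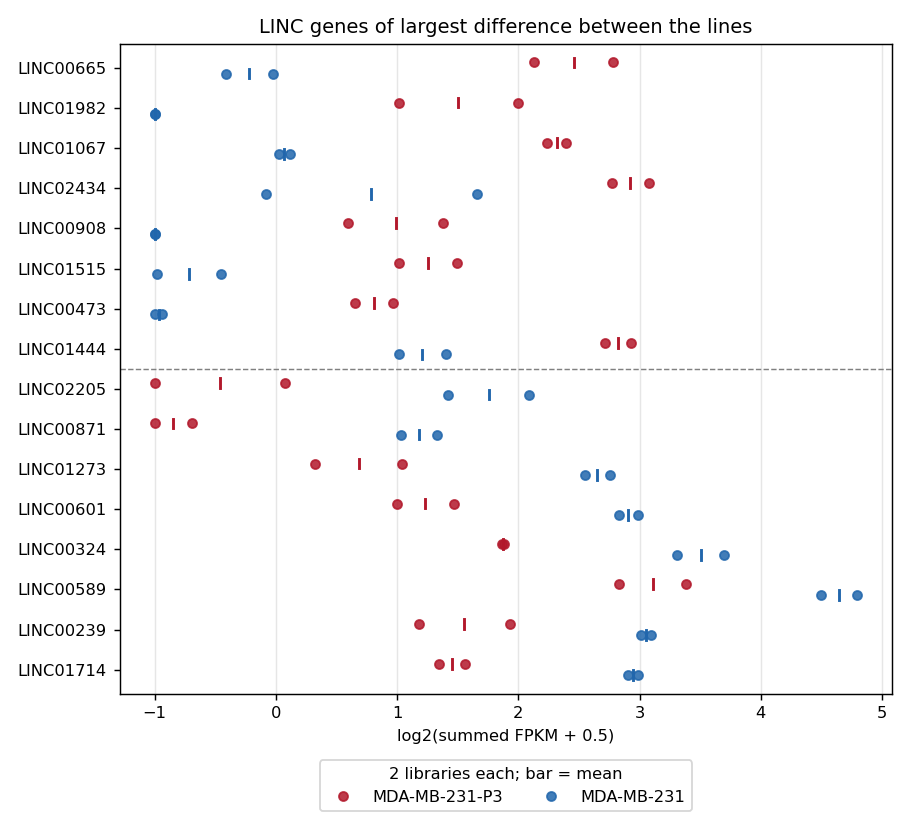
Log2(summed FPKM + 0.5) in each library of the 8 LINC genes higher and the 8 lower in MDA-MB-231-P3 with the largest differences among those whose libraries do not overlap, with the bar at the mean of 2 libraries. A value of -1 stands for 0 FPKM, where both MDA-MB-231 libraries of LINC01982 and 1 MDA-MB-231-P3 library each of LINC02205 and LINC00871 lie, and the near-0 values of LINC00908 and LINC00473 in MDA-MB-231 lie close to it. LINC00665, LINC01982, LINC00908, LINC01515 and LINC00473 averaged under 0.5 FPKM in MDA-MB-231, and LINC02205 and LINC00871 in MDA-MB-231-P3. Their differences are partly set by the limit on the mean.

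Some abundant LINC genes were close to level between the lines. LINC01139, also called LINK-A and described in triple negative breast cancer, measured 6.97 and 7.58 FPKM in MDA-MB-231-P3, against 7.45 and 6.39 FPKM in MDA-MB-231. LINC02001, now SNHG30, hosts a gene of the small nucleolar RNA SNORD7 and measured 10.3 and 12.1 FPKM in MDA-MB-231-P3, against 12.1 and 10.4 FPKM in MDA-MB-231. LINC00667 measured 16.7 and 16.1 FPKM in MDA-MB-231-P3, against 16.2 and 18.1 FPKM in MDA-MB-231. The libraries of these 3 genes overlapped, with log2 differences of 0.07, -0.01 and -0.06 and standard errors of 0.25 to 0.26. LINC00938 measured 6.15 and 8.33 FPKM in MDA-MB-231-P3, against 8.57 and 6.33 FPKM in MDA-MB-231. LINC00663 measured 4.09 and 8.18 FPKM in MDA-MB-231-P3, against 4.75 and 7.90 FPKM in MDA-MB-231. Their log2 differences, -0.04 and -0.07, were thus small beside the gap within each line.

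The genes with a known small protein or a history in breast cancer went both ways. Of 9 LINC genes listed for a small protein, 3 are in the table and all 3 belong to the set: LINC00665 and LINC00908 were higher in both MDA-MB-231-P3 libraries, and LINC00467 was lower. LINC00467, whose short protein ASAP associates with ATP synthase in colorectal cancer cells, measured 11.5 and 9.21 FPKM in MDA-MB-231-P3, against 17.3 and 13.6 FPKM in MDA-MB-231. Its log2 difference was -0.55 ± 0.29 (SE), with an adjusted p of 0.432 in limma.

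Of 31 LINC genes listed as studied in breast cancer, 23 are in the table and 14 reached the limit. For 6 of the 14 both MDA-MB-231-P3 libraries lay above, for 6 below, and none was called, where all tested genes gave 28.8% above and 21.4% below. The median log2 difference was 0.27, against 0.09 over all tested genes. No library value of the 9 others exceeded 0.535 FPKM. The list was drawn up with earlier results of these data known, so its counts are a description.

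LINC00704, known as MANCR, a mitosis-associated RNA described in aggressive breast cancer cells, measured 11.2 and 7.57 FPKM in MDA-MB-231-P3, against 5.07 and 3.91 FPKM in MDA-MB-231. LINC00261, which lies beside the endoderm factor gene FOXA2, measured 7.06 and 7.01 FPKM in MDA-MB-231-P3, against 5.14 and 4.69 FPKM in MDA-MB-231. LINC00310 measured 1.39 and 1.47 FPKM in MDA-MB-231-P3, against 0.887 and 0.386 FPKM in MDA-MB-231. All 3 were higher in both MDA-MB-231-P3 libraries, with adjusted p-values in limma of 0.305, 0.429 and 0.376.

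LINC01089, also called LIMT, was described as an inhibitor of metastasis that EGF lowers in mammary cells. It measured 3.02 and 4.98 FPKM in MDA-MB-231-P3, against 8.62 and 8.53 FPKM in MDA-MB-231. Its log2 difference of -1.05 ± 0.33 (SE) had an adjusted p of 0.294 in limma. The gene lies on the minus strand at chr12:122233173-122241812 (hg19), starts 103 bp from the start of the histone methyltransferase gene SETD1B and overlaps a coding gene on its own strand. LINC01116, near the HOXD genes, measured 9.67 and 14.3 FPKM in MDA-MB-231-P3, against 19.2 and 18.4 FPKM in MDA-MB-231. LINC01315 measured 2 and 2.16 FPKM in MDA-MB-231-P3, against 3.65 and 4.59 FPKM in MDA-MB-231. LINC01234 measured 20.4 and 21.7 FPKM in MDA-MB-231-P3, against 23.9 and 21.9 FPKM in MDA-MB-231. These 3 genes were lower in both MDA-MB-231-P3 libraries, LINC01234 by a narrow margin, and limma gave adjusted p-values of 0.393, 0.301 and 0.827.

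LINC00472, described as growth-restraining in breast cancer, had the most isoforms of the set, 69. It measured 22.0 and 11.0 FPKM in MDA-MB-231-P3, against 13.7 and 6.63 FPKM in MDA-MB-231. The libraries within a line differed by more than the means of the lines, and the lines overlapped (log2 difference 0.68 ± 0.53, SE, and 0.18 to 1.18 with single libraries left out). Its span, chr6:71896864-72130448 on the minus strand (hg19), contains the genes MIR30A and MIR30C2 on the same strand. Their 5p miRNAs are shown because they share a seed, bases 2 to 8, given in capitals as RefSeq lists them.
hsa-miR-30a-5p: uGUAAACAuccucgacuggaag
hsa-miR-30c-5p: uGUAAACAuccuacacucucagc
Both carry the seed GUAAACA, by which the miR-30 family recognises its targets. The mature miRNAs were not analysed here, and the level of LINC00472 says nothing of theirs.

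**Figure D4:**
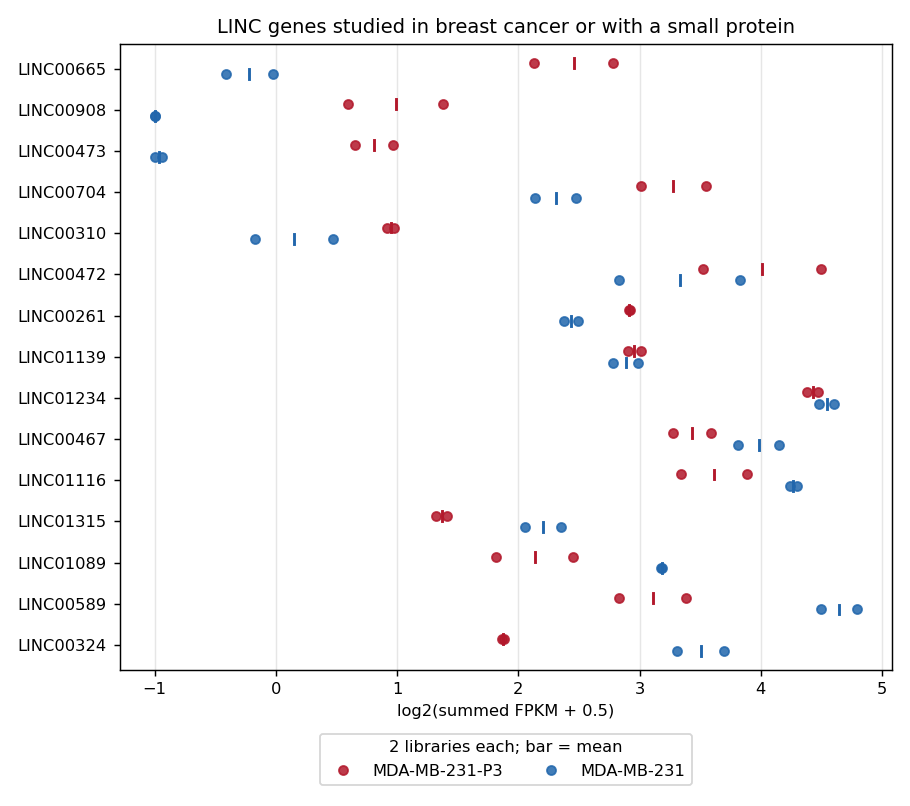
Log2(summed FPKM + 0.5) in each library of the 15 LINC genes listed for a small protein or as studied in breast cancer, ordered by log2 difference from the highest at the top, with the bar at the mean of 2 libraries. LINC00665, LINC00908 and LINC00473 at the top are near or below 0 on this scale in MDA-MB-231, and LINC00324 and LINC00589 at the bottom are lower in both MDA-MB-231-P3 libraries.

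As a check on cell identity, LINC genes typical of other cells were looked up. Of 4 luminal breast markers, 3 are in the table, none reached the limit, and the highest library value was 0.227 FPKM. Neural markers stayed at or under 0.302 FPKM and markers of pluripotent cells at or under 0.0680 FPKM. Of 7 blood cell markers, 6 are in the table, LINC01781 and LINC01871 were listed at 0 in every library, and LINC00861 was at or near 0. The blood list summed to 3.93 to 5.43 FPKM in MDA-MB-231-P3, against 5.79 to 6.66 FPKM in MDA-MB-231. Most of this came from LINC01943, which measured 2.84 and 4.58 FPKM in MDA-MB-231-P3, against 5.46 and 5.58 FPKM in MDA-MB-231. LINC01943 overlaps the lncRNA gene CYTOR on the opposite strand in the annotation. LINC00926, a B cell marker, gave nearly all of the rest. It measured 1.05 and 0.859 FPKM in MDA-MB-231-P3, against 0.324 and 1.07 FPKM in MDA-MB-231. Of the fibroblast markers, LINC01615 measured 1.23 and 1.11 FPKM in MDA-MB-231-P3, against 0.459 and 0.736 FPKM in MDA-MB-231, and LINC01614 stayed at or under 0.210 FPKM. Of the liver markers, LINC01554 measured 0.815 and 0.251 FPKM in MDA-MB-231-P3, against 0.265 and 1.31 FPKM in MDA-MB-231, and the other 2 were at or near 0. The part of other cells in the differences above was not tested.

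Isoform structure gave a finer picture. The 264 genes had 3220 isoform rows, with a median of 9 per gene, and 249 genes had more than 1. The leading isoform of these held a median of 49.6% of its gene, over 90% in 31 genes and under 50% in 126. The isoform of highest mean was a different one in MDA-MB-231-P3 than in MDA-MB-231 for 103 of the 249 genes. In 89 genes the same isoform led in all 4 libraries, and in 9 genes the libraries of each line shared a leading isoform that differed between the lines. No isoform of any gene passed an adjusted p of 0.05 in limma over 8432 isoform rows (0%), 0 of 467 LINC isoforms included. At an unadjusted p under 0.05 there were 71 LINC isoforms (15.2%), against 13.3% of all. The smallest adjusted p, 0.122, belonged to isoform 10 of LINC01481, now called PRANCR, which was listed near 0 in both MDA-MB-231-P3 libraries, against 3.52 and 3.57 FPKM in MDA-MB-231.

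LINC00324 was the most abundant of the 9 genes. Its isoform 3 measured 1.30 and 1.54 FPKM in MDA-MB-231-P3, against 9.28 and 8.29 FPKM in MDA-MB-231. Isoform 4 measured 1.84 and 1.65 FPKM in MDA-MB-231-P3, against 3.19 and 1.13 FPKM in MDA-MB-231. The lower level in MDA-MB-231-P3 was thus seen in isoform 3, which had a log2 difference of -2.27 ± 0.29 (SE) and an adjusted p of 0.185 in limma, while isoform 4 overlapped. Isoform 3 made up 41.3% and 48.3% of the gene in MDA-MB-231-P3, against 74.4% and 88% in MDA-MB-231. In LINC01444, isoform 4 measured 2.31 and 2.06 FPKM in MDA-MB-231-P3, against 0.284 and 0.572 FPKM in MDA-MB-231. Its isoform 5 was near 0 in MDA-MB-231-P3, against 0.444 and 0.667 FPKM in MDA-MB-231. In LINC01578, isoform 7 measured 3.02 and 2.65 FPKM in MDA-MB-231-P3, against 9.36 and 9.72 FPKM in MDA-MB-231, with an adjusted p of 0.251 in limma.

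**Figure D5:**
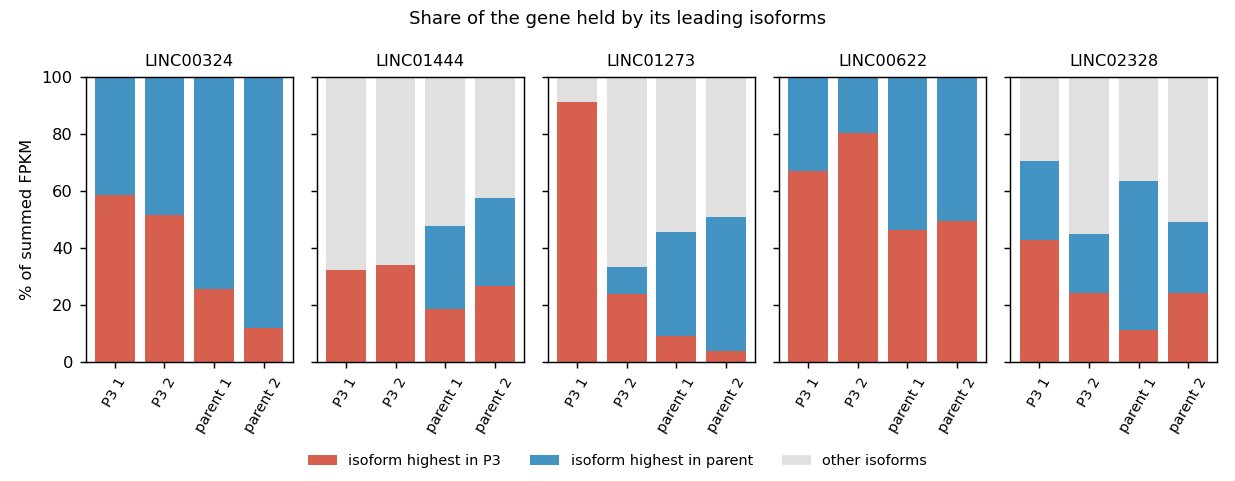
Share of summed FPKM held, in each library, by the isoform of highest mean in MDA-MB-231-P3 (red), the isoform of highest mean in MDA-MB-231 (blue) and all other isoforms (grey) for the 5 most abundant of the 9 genes whose leading isoform was the same within each line and differed between the lines. P3 stands for MDA-MB-231-P3 and parent for MDA-MB-231, and in LINC00324 the blue isoform holds 41.3% and 48.3% in MDA-MB-231-P3 and 74.4% and 88% in MDA-MB-231.

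By position, most of the genes were intergenic as named. On hg19, 252 of the 264 could be placed in the GENCODE annotation, and 213 of these (84.5%) overlapped no coding gene. Another 27 overlapped a coding gene on the opposite strand and 11 on the same strand, and LINC00999 is annotated as protein-coding and LINC00869 as a transcribed pseudogene. The 27 genes opposite a coding gene had a median log2 difference of -0.25, with 20 negative, and both MDA-MB-231-P3 libraries lay below for 10 and above for 4. The 213 without overlap had a median of 0.09, with both MDA-MB-231-P3 libraries above for 68 and below for 52. Genes with antisense names ending in -AS and a number, 372 of them tested, had a median of -0.07, with 70 above and 108 below. As shares, both MDA-MB-231-P3 libraries lay above for 14.8% and below for 37% of the genes opposite a coding gene, 31.9% and 24.4% of those without overlap and 18.8% and 29.0% of the -AS genes, where all tested genes gave 28.8% and 21.4%. The median over all tested genes was 0.09. Libraries were strand-marked, but whether strand was used when reads were assigned is not given in the sources used here, so reads of overlapping partners cannot be told apart. Counted over all positions, 20 genes had as their nearest coding start one on the opposite strand, within 1000 bp upstream of their own start. Of these, 14 had a negative difference, and their median was -0.23. Opposite coding starts that lie downstream of the LINC start, as for LINC00649, were not counted.

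In all, 7 pairs of LINC genes lay within 50000 bp of each other, and the log2 differences had opposite signs in 6 of the 7 and the same sign in 1, LINC01135 and LINC01358. No test was made of this count. In 2 of the pairs, the libraries of both genes were separated by line, in opposite directions. LINC01117 overlaps LINC01116 on the opposite strand near the HOXD genes and measured 4.14 and 4.75 FPKM in MDA-MB-231-P3, against 3.36 and 2.39 FPKM in MDA-MB-231. It was thus higher in MDA-MB-231-P3 where LINC01116 was lower. LINC02320 overlaps LINC00239 on the opposite strand and measured 1.55 and 1.88 FPKM in MDA-MB-231-P3, against 0.798 and 0.994 FPKM in MDA-MB-231, again higher where its partner was lower.

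The LINC genes lay on 23 chromosomes. The median log2 difference of the LINC genes and that of the other tested lncRNA genes placed there by symbol had the same sign on 9 chromosomes and opposite signs on 14. The chromosomes named next were chosen after their values were seen. On chromosome 12, 16 of 20 LINC genes were lower in MDA-MB-231-P3 by the sign of the difference, with a median of -0.31, and so were 15 of 23 others, with a median of -0.42. On chromosome 9, 4 of 5 LINC genes and 15 of 19 others had a negative difference. On chromosome 6, 11 of 13 LINC genes had a positive difference, with a median of 0.37, and 11 of 18 others. On chromosome 21, 9 of 10 LINC genes and 7 of 11 others had a positive difference. On chromosome 5, 13 of 19 LINC genes had a negative difference, against 12 of 25 others. On chromosome 2, 12 of 19 LINC genes had a positive difference, with a median of 0.20, and 19 of 32 others had a negative one, with a median of -0.18. On chromosome 10 the medians were 0.12 for 10 LINC genes and -0.11 for 24 others. No test was made of these counts, and copy number was not analysed here.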

How the data were processed

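The authors deposited FPKM values per lncRNA isoform for 2 libraries of MDA-MB-231-P3 and 2 of MDA-MB-231. Per the labels' protocols, reads were aligned with HISAT2 to hg19 and normalized to FPKM, and the submitters' processing notes also name StringTie. Not given in the sources used here are tool versions, the lncRNA annotation and the use of strand. FPKM values are not counts, so depth is unknown and no counting interval is given.

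Isoforms were summed per gene, and genes with a mean of at least 0.5 FPKM were tested on log2(FPKM + 0.5), a scale that understates changes of low genes, with limma 3.58.1 in R 4.3.3, using two-sided moderated tests with a trend on intensity, MDA-MB-231-P3 minus MDA-MB-231 and no block. P-values were adjusted with Benjamini-Hochberg over all tested genes, threshold 0.05. Scripts were tested on simulated data. Standard errors are those of the fitted log2 difference. Positions come from GENCODE 44 on GRCh37, and 12 genes had none. Promoters and miRNAs come from RefSeq on GRCh38.p14.

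The members and lists were chosen with earlier results of these data known. Named genes were the 10 most abundant members, called members, up to 8 per direction of largest difference with libraries that do not overlap, the 6 abundant members (at least 5 FPKM) of smallest difference, list members, the 3 genes on each side of the level limit and 5 with a changed leading isoform. LINC00370, LINC01135, LINC01358, LINC01117, LINC02320, LINC01481, LINC00999 and LINC00869, and the isoforms named, were chosen after their values were seen.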

Additional observations from a re-analysis of the deposited data

How the results depend on the processing

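The alternatives were pseudocounts of 0.1 and 1, quantile normalization, no filter, a minimum of 1 FPKM, centring on the median, no intensity trend, the replicate number as a block, isoform rows in place of sums (the isoform of highest mean standing for its gene), a required log2 difference of 1 and leaving out each library. Of all tested genes, 4 were called, against 2 with quantile normalization and 0 with a pseudocount of 1, no filter, no trend, isoform rows, or any library left out. LINC genes called were 0 throughout, with the smallest adjusted p between 0.0949 and 0.362. Their median difference of 0.08 became -0.029 with quantile normalization, -0.028 with centring, 0.0012 on isoform rows and 0.0012 to 0.16 with a library left out. LINC genes above numbered 83, but 53 on isoform rows (196 genes tested) and 109 to 119 with a library left out, and those below numbered 66, then 84 to 104. The shares of all tested genes in these settings are not given, so these counts stand without a background. A group of 1 library overlaps less often by construction, and for the other changes the cause was not tested.

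With the replicate number as a block, 0 genes were called in all, and 51 LINC genes had an unadjusted p under 0.05, against 61 without it. The share of all tested genes with the block is not given. Libraries of equal number hardly deviated together (r = 0.078 over all tested genes, 0.075 over LINC genes). Whether they were handled together was not tested.

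Of 48 named genes, 36 kept the sign of their difference in every setting in which they had a value. Only 37 had one in all settings, since 38 had one on isoform rows and 39 at the minimum of 1 FPKM, and 28 of the 37 kept their sign. LINC01139 turned to -0.019 with quantile normalization, -0.042 with centring and -0.13 on isoform rows, and LINC01806 to -0.033 with centring. The leading isoform, which is not the gene's sum, had 0.13 for LINC01184, 1.92 for LINC02001 and -0.24 for LINC00472, and isoform 6 of LINC02001 had -1.51. With single libraries left out, LINC00910 ran from -0.30 to 0.55, LINC01184 from -0.48 to 0.028, LINC02001 from -0.12 to 0.10, LINC00938 from -0.24 to 0.17, LINC00663 from -0.53 to 0.39, LINC01554 from -0.86 to 0.38, LINC00926 from -0.12 to 0.81, LINC01619 from -0.016 to 0.72, LINC01806 from -0.013 to 0.17, LINC00667 from -0.14 to 0.017 and LINC01139 from -0.033 to 0.17. For these the cause was not tested.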
